A study of Mus musculus with 6 samples.

Results

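Integrins and laminins form an adhesion system in which cells grip the matrix around them, and their genes were followed here in mouse liver. Members were every gene whose mouse symbol named an integrin α or β subunit or a laminin α, β or γ chain, with the integrin-like gene Itgbl1, while genes that only bind integrins were not counted. That rule took 38 of the 21362 genes listed, of which 27 were integrin genes and 11 were laminin genes, spread over 15 chromosomes. Itgax, the α subunit of the complement receptor of dendritic cells and some macrophages, was outside the rule.

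RNA-seq was made from whole livers of Mettl14f/f mice, in which the gene for METTL14, a subunit of the complex that writes N6-methyladenosine on RNA, is flanked by loxP sites. All mice, males per the study, were given a high fat diet from 8 weeks of age, received an AAV8 vector through the tail vein after 10 weeks of it, and were sampled 8 weeks later. The vectors carried GFP (AAV8-TBG-GFP, genotype given as WT, 3 livers) or Cre recombinase (AAV8-TBG-Cre, genotype given as METTL14 KO, 3 livers) under the TBG promoter, which is directed to hepatocytes, so that other liver cells were expected to keep the intact gene. The livers are called GFP and Cre livers after those labels.

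Integrins are pairs of one α and one β subunit in the cell membrane that bind matrix proteins or other cells on the outside and the actin cytoskeleton, through talin and kindlin, on the inside. Laminins are three-chain proteins, one α, one β and one γ, that polymerise into the sheet of the basement membrane. In liver, bile ducts and larger vessels lie on a basement membrane, hepatocytes border a looser matrix in the space of Disse, and leukocytes use their own integrins to leave the blood and to bind complement.

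The libraries held 20356459 to 21010524 estimated counts, and the members took 0.0428 to 0.0450% of these in the GFP livers and 0.0535 to 0.0861% in the Cre livers. Mettl14 itself had 124, 126 and 111 counts in the GFP livers and 104, 131 and 101 in the Cre livers, a log2 fold change of -0.29 ± 0.15 (SE) with an edgeR adjusted p of 0.337, so the loss of the gene was not detectable from these whole-liver counts. Cre replicate 2 stood apart from the other libraries on the first principal component. Library names have 2 digits in GFP replicates 1 and 2 and Cre replicate 1 and 4 digits in the other 3 libraries, and what the form marks is not stated. In whole liver, a higher level of a gene because more cells of a type were present and because each cell held more RNA cannot be told apart.

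More of the integrin and laminin genes were higher in the Cre livers than lower. Of the 38 members, 32 passed the filter on low counts and were tested with edgeR's quasi-likelihood test, and 6 (Itga2, Itgb8, Itgad, Itgae, Itgb2l and Itga11) did not. Itgb6 and Itgbl1 passed that filter only through the Cre livers, so they could be tested only because they were high there. Both are in the counts of members that rose. A gene was called when its unadjusted p was under 0.05 and its change at least 1.2-fold, and separately when its adjusted p was under 0.05. By the first rule 16 of the 32 tested members rose, where 12.0% of all 13431 tested genes rose. One member, Lama1, fell, where 8.41% of all tested genes fell. By the second rule 2 members rose, Lamc3 among them, where 0.484% of all tested genes rose, and no member fell. In 18 members the levels had every Cre liver above every GFP liver, where 14.0% of all tested genes did. The median log2 fold change was 0.56 over the 32 tested members and -0.01 over all tested genes, with 25 of the 32 above 0. All p-values measure the spread between these livers.

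**Figure D1:**
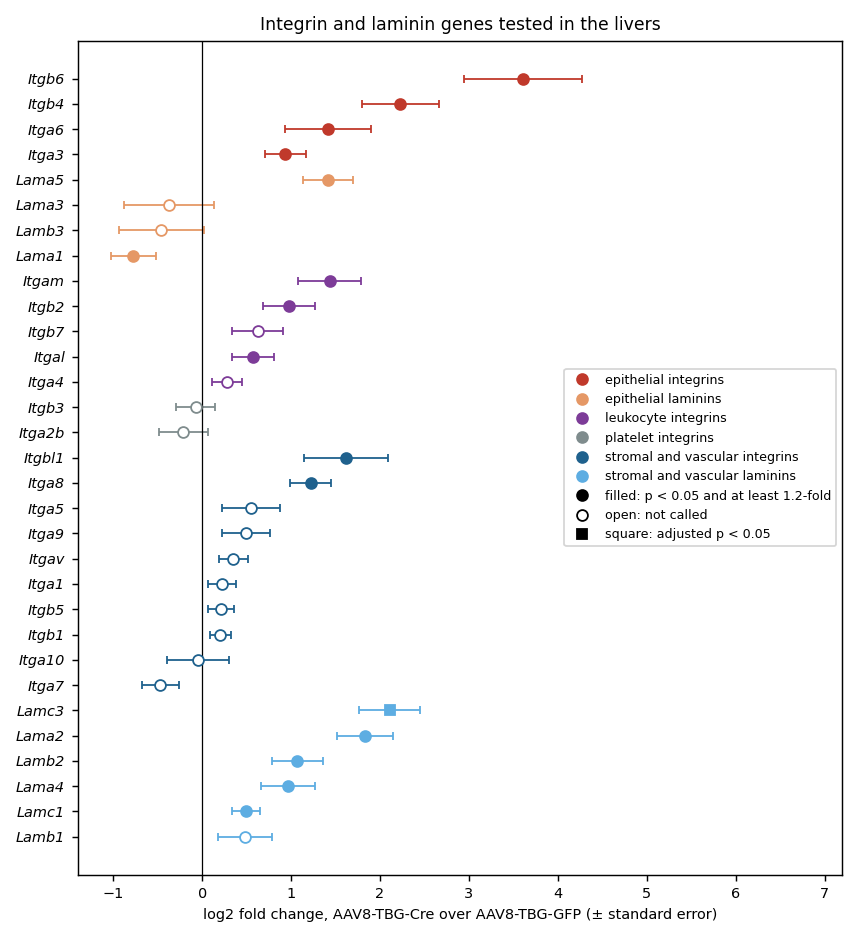
Log2 fold change of the tested members described here, Cre over GFP livers (horizontal axis, bars ± standard error), coloured by class, with filled marks for genes past the unadjusted threshold and squares for adjusted p under 0.05. Itgb6 lies farthest right at 3.61, Itgb4 lies at 2.23, Lamc3 is the square at 2.11, and Lama1 is the filled mark left of 0.

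One Cre liver carried the upper end of these changes. Of the 32 tested members, 24 had their highest level in Cre replicate 2, and all 16 members that rose did. Without that library, 14 of the 17 called members kept their call, while edgeR called no gene of the whole table at an adjusted p under 0.05 and 1899 genes at the unadjusted threshold. All 16 members that rose had every Cre liver above every GFP liver. Their log2 ratios above 0 in both the 2-digit and the 4-digit libraries follow from that and show no more. Other cells' markers moved in the same direction in these livers. The summed level of 13 cholangiocyte marker genes, those of the cells that line bile ducts, was 92.2 to 157 CPM (counts scaled to a common library size and composition) in the GFP livers and 395 to 675 CPM in the Cre livers. Macrophage and Kupffer cell markers, 13 genes, summed to 305 to 346 CPM in the GFP livers and 496 to 791 CPM in the Cre livers. Stellate cell and fibroblast markers, 11 genes, summed to 249 to 378 CPM and 459 to 977 CPM. That sum includes the collagen genes Col1a1 and Col3a1, at log2 fold changes of 2.15 and 2.09. The genes of that list not called, Lrat, Des, Dcn, Reln and Acta2, had log2 fold changes of -0.25, 0.13, 0.38, -0.10 and -0.37. Endothelial markers, 11 genes, summed to 185 to 301 CPM and 194 to 232 CPM, so that the groups overlapped. All 12 cholangiocyte genes tested rose, 4 of them past the adjusted threshold, where 0.484% of all tested genes rose. Cldn4 and Cftr averaged 0.0684 and 0.136 CPM in the GFP livers. They, Krt7 and Cldn7 were among those that passed the filter on low counts only through the Cre livers. At the unadjusted threshold 6 of 11 stellate cell genes rose and 1 of 11 endothelial genes fell. Of 10 hepatocyte genes 2 rose and 1 fell. Over all tested genes 12.0% rose and 8.41% fell, not far from the endothelial and hepatocyte counts. Krt19, Krt7 and Epcam, which define cholangiocytes, averaged 1.11, 0.701 and 1.98 CPM in the GFP livers and 6.29, 3.70 and 12.7 CPM in the Cre livers. The part of these cells in the changes of the members was not tested.

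**Figure D2:**
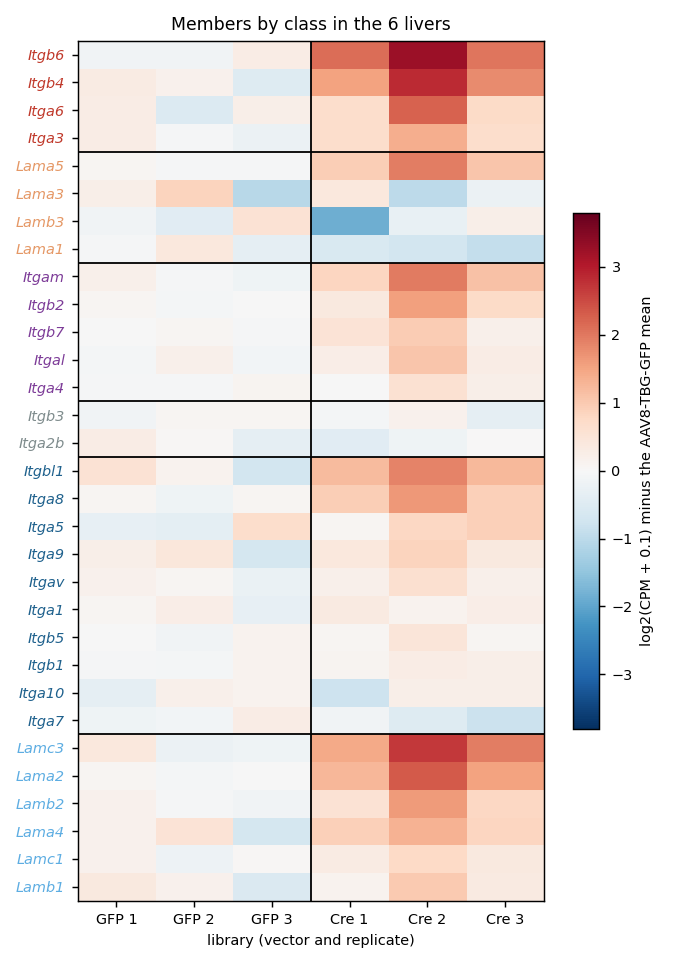
Level of the tested members described here in each of the 6 livers as log2(CPM + 0.1) minus the GFP mean, ordered by class as in the plot of fold changes. The Cre replicate 2 column is the reddest, and Itgb6 is the darkest row in it.

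The epithelial integrins all rose among those tested. These subunits bind laminin or activate TGF-β and are typical of epithelia, bile ducts included. Of 6, 4 were tested and 4 rose, where 12.0% of all tested genes rose, and the median log2 fold change was 1.82. Itgb6 is among the 4 and passed the filter on low counts only through the Cre livers. With at least 10 counts in every library, which leaves Itgb6 out, the median was 1.44. Itgb6, which pairs with αv to activate latent TGF-β on epithelia, had 1, 1 and 2 counts in the GFP livers and 13, 36 and 12 in the Cre livers. Every Cre liver was above every GFP liver, and the ratio of the pooled counts, scaled for library size, was 13.5 with a 95% counting interval of 5.00 to 51.0 (exact Clopper-Pearson, counting error only). The fitted log2 fold change was 3.61 ± 0.66 (SE) with an edgeR adjusted p of 0.0552, a size that rests on 4 counts in the GFP livers.

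Itgb4, the β subunit that joins epithelial cells to laminin at hemidesmosomes, stood at 1.27, 1.12 and 0.681 CPM in the GFP livers and at 3.05, 7.68 and 3.71 CPM in the Cre livers. The groups did not overlap, and the difference was 4.69-fold (log2 2.23 ± 0.43 SE, edgeR adjusted p = 0.0586). Its partner Itga6, which also pairs with β1, stood at 2.59, 1.43 and 2.46 CPM and at 3.39, 10.3 and 3.56 CPM. The lowest Cre liver was 3.39 CPM and the highest GFP liver 2.59 CPM, so the groups did not overlap but most of the difference lay in Cre replicate 2. The log2 fold change of 1.42 ± 0.49 (edgeR adjusted p = 0.161) fell to 0.68 and lost its call without that library. The call was also lost without GFP replicate 2 (1.19), with the replicate block (1.23) and with library name form in the fit (1.13). With limma on log2(FPKM + 1) it was lost too (0.55).

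Itga3, a laminin receptor subunit with the highest length-scaled level of the class, stood at 12.3, 9.74 and 8.53 CPM and at 16.2, 26.2 and 16.0 CPM. All Cre livers were above all GFP livers, with a log2 fold change of 0.93 ± 0.23 (edgeR adjusted p = 0.0859). Itga2 and Itgb8 were not tested: Itga2, a collagen receptor subunit, had no count in the GFP livers and 1, 10 and 12 counts in the Cre livers, a ratio whose 95% counting interval begins at 5.08 (exact Clopper-Pearson, scaled for library size). Itgb8, which also activates TGF-β, had 1, 0 and 5 counts in the GFP livers and 7, 14 and 15 in the Cre livers. Levels this low carry large counting error.

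**Figure D3:**
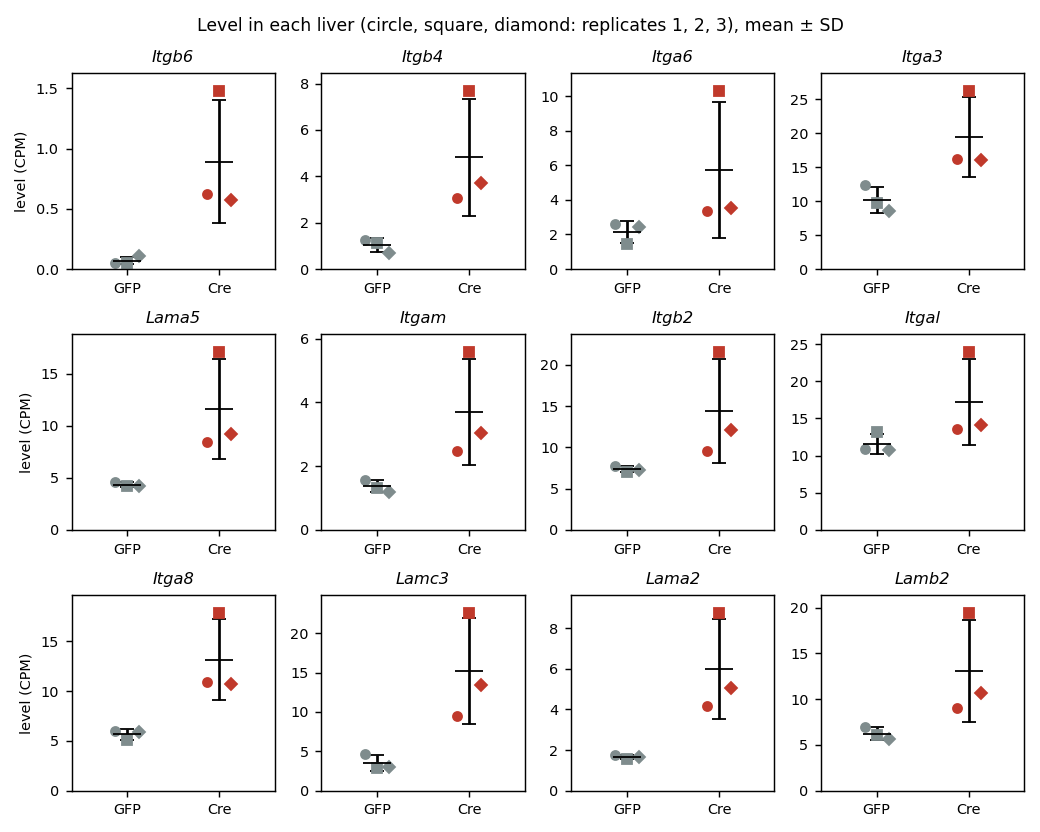
Level in CPM (vertical axis, from 0) of 12 members that rose past the unadjusted threshold, in each GFP (grey) and Cre (red) liver, with the mean and SD bar and one marker shape per replicate. In each panel the square of Cre replicate 2 is the highest point, and all Cre points lie above all GFP points.

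Among the epithelial laminin chains, Lama5 rose, Lama1 fell and Lama3 and Lamb3 were not called, and the class had a median log2 fold change of -0.37. Lamb3, a β chain of the laminin that anchors epithelia, stood at 16.0, 13.1 and 25.8 CPM in the GFP livers and at 4.77, 14.5 and 20.5 CPM in the Cre livers, and the groups overlapped (log2 -0.46 ± 0.48 SE, edgeR adjusted p = 0.630). With library name form in the fit, Lamb3 was called lower at the unadjusted threshold (log2 -1.02, edgeR adjusted p = 0.0997), and its log2 ratio was -1.61 in the 2-digit and -0.56 in the 4-digit libraries. Lama3, an α chain of the same laminin, stood at 7.52, 11.7 and 3.04 CPM and at 8.54, 3.20 and 5.54 CPM, again overlapping (log2 -0.37 ± 0.50 SE, edgeR adjusted p = 0.721). The FPKM ratio of Lamb3 to Lamb2, a β chain of stroma and vessels, differed by -1.63 log2 units between Cre and GFP livers, without overlap, at p = 0.1 in an exact two-sided permutation test (adjusted 0.2 over 10 ratios), the smallest that 3 against 3 allows.

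Lama5, the α chain of most mature epithelial and vascular basement membranes, stood at 4.62, 4.18 and 4.24 CPM in the GFP livers and at 8.45, 17.1 and 9.19 CPM in the Cre livers. Each Cre liver was above each GFP liver (log2 1.41 ± 0.28 SE, edgeR adjusted p = 0.0616). Lama1, the α chain of early embryonic basement membrane, was the only member called lower, at 4.27, 5.92 and 3.46 CPM and at 2.96, 2.71 and 2.31 CPM. The groups did not overlap, the log2 fold change was -0.77 ± 0.25 (edgeR adjusted p = 0.150), and the call was lost without GFP replicate 2 or without Cre replicate 3.

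**Figure D4:**
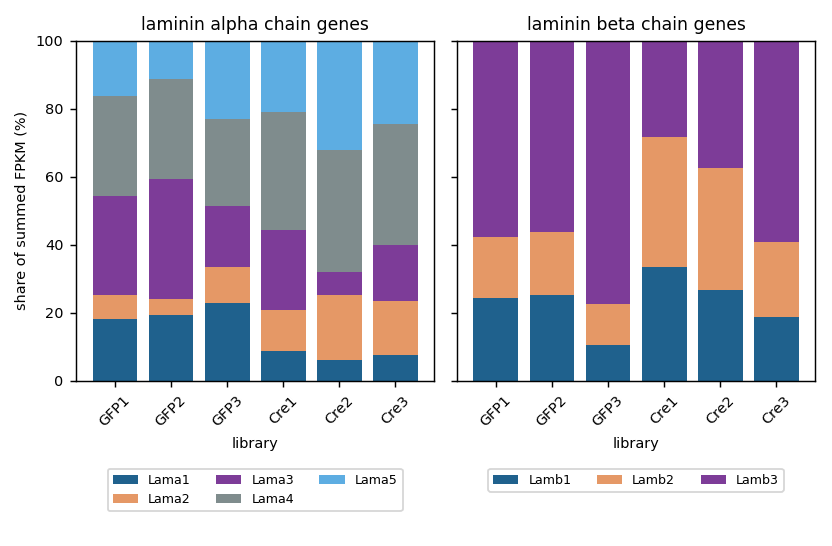
Share of each chain in the summed FPKM of its laminin α or β group (vertical axis, percent) in each of the 6 livers, one colour per chain. Lama1 makes up 20.1% of the α total on average in the GFP livers and 7.46% in the Cre livers, and Lamb3 63.8% and 41.7% of the β total.

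Of the 6 laminin chains of stroma and vessels, 5 were called higher, where 12.0% of all tested genes were, with a median log2 fold change of 1.02. Lamc3, a γ chain known from nerve and retina, stood at 4.62, 2.91 and 3.04 CPM in the GFP livers and at 9.54, 22.6 and 13.4 CPM in the Cre livers. No Cre liver reached down to the GFP range. The 4.31-fold difference (log2 2.11 ± 0.35 SE, edgeR adjusted p = 0.0446) had adjusted p-values of 1.32e-06 to 0.188 over 15 alternative settings.

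Lama2, the α chain known from muscle and nerve and made by mesenchymal cells, stood at 1.78, 1.58 and 1.68 CPM and at 4.15, 8.75 and 5.05 CPM. The GFP livers lay close together and below all Cre livers (log2 1.83 ± 0.32 SE, edgeR adjusted p = 0.0502). Lamb2, a β chain of mature vessels and other basement membranes, stood at 7.01, 6.07 and 5.60 CPM and at 9.07, 19.4 and 10.7 CPM. It did not overlap either (log2 1.07 ± 0.29 SE, edgeR adjusted p = 0.101).

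Lama4, the α chain of endothelial basement membranes, had a log2 fold change of 0.96 ± 0.31 (edgeR adjusted p = 0.141) and lost its call without Cre replicate 2. Lamc1, the γ chain shared by most laminins, stood at 21.1, 16.5 and 19.4 CPM and at 23.7, 31.9 and 24.6 CPM. Those groups were separate but close (log2 0.49 ± 0.15 SE, edgeR adjusted p = 0.133). Lamb1, the other common β chain, was not called (log2 0.48 ± 0.30 SE). The FPKM ratio of Lamb1 to Lamb2 differed by -0.51 log2 units between Cre and GFP livers (no overlap, exact permutation p = 0.1, adjusted 0.2). That of Lamc3 to Lamc1, chosen after its values were seen, was 1.56 units higher in the Cre livers (no overlap, exact permutation p = 0.1).

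Part of the leukocyte integrins was higher in the Cre livers. Of 8 members, 5 were tested and 3 rose, where 12.0% of all tested genes rose, with a median log2 fold change of 0.63. Itgam, the α subunit of the complement receptor of neutrophils and macrophages, stood at 1.58, 1.33 and 1.2 CPM in the GFP livers and at 2.48, 5.59 and 3.03 CPM in the Cre livers, with no overlap (log2 1.44 ± 0.35 SE, edgeR adjusted p = 0.0854). Its β partner Itgb2, which also pairs with Itgal, stood at 7.72, 6.99 and 7.28 CPM and at 9.54, 21.6 and 12.1 CPM (log2 0.98 ± 0.29 SE, edgeR adjusted p = 0.123). Both groups were separate for Itgb2 too, with Cre replicate 2 far above the other libraries.

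Itgal, the α subunit of the lymphocyte integrin that binds ICAM-1, stood at 10.8, 13.2 and 10.7 CPM and at 13.6, 23.9 and 14.1 CPM. The groups lay close to each other without overlap, and the call (log2 0.57 ± 0.23 SE, edgeR adjusted p = 0.218) was lost without GFP replicate 1, GFP replicate 3 or Cre replicate 2. It was also lost with library name form in the fit (0.50) and with limma on log2(FPKM + 1) (0.51) or log2(FPKM + 0.1) (0.67). Itgb7 and Itga4, which form the gut-homing pair of lymphocytes, were not called, at log2 0.63 ± 0.29 and 0.28 ± 0.17. Itgae and Itgad, with few counts, were not tested.

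The FPKM ratio of Itgam to Itgb2 was 0.46 log2 units higher in the Cre livers and that of Itgb2 to Itgb1 0.68 units higher, without overlap and each at the smallest exact permutation p of 0.1 (adjusted 0.2). Of the leukocyte marker lists, 10 of 13 macrophage and Kupffer cell genes rose. Clec4f, Timd4 and Marco were not called, at log2 0.29, 0.29 and -0.75. Among neutrophil genes, 3 of 5 tested rose and 1 fell (Ly6g). Of 4 T and NK cell genes tested 1 rose and 1 fell (Cd4). Over all tested genes 12.0% rose and 8.41% fell. S100a8 and Cd8a, the T cell gene that rose, averaged 0.274 and 0.564 CPM in the GFP livers. S100a8 and Cd8a passed the filter on low counts only through the Cre livers, where Cd8a stood at 0.764, 2.63 and 0.915 CPM. Neutrophil markers summed to 15.2 to 15.9 CPM in the GFP livers and 21.7 to 22.9 CPM in the Cre livers. Retnlg and Ngp among the neutrophil genes and Ncr1 and Gzma among the T and NK cell genes had no count in at least 1 library. The part of these cells in the leukocyte integrins was not tested. Itgax, outside the rule, stood at 2.74, 1.33 and 3.14 CPM and at 3.87, 19.4 and 9.0 CPM, a log2 fold change of 2.16 ± 0.59 (edgeR adjusted p = 0.101).

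Of the 11 integrin genes of matrix-producing and vascular cells, 10 were tested and 2 rose, Itgbl1 and Itga8, a share not far from the 12.0% of all tested genes that rose, with a median log2 fold change of 0.29. Itga8, the nephronectin receptor subunit of mesenchymal cells, stood at 6.00, 5.05 and 5.92 CPM in the GFP livers and at 10.9, 17.9 and 10.7 CPM in the Cre livers. The nearest livers differed by a wide margin (log2 1.22 ± 0.23 SE, edgeR adjusted p = 0.0564). Itgbl1, which holds integrin-like repeats but is no receptor subunit, had 10, 7 and 3 counts and 18, 35 and 18 counts, with no overlap at these low counts (log2 1.62 ± 0.47 SE, edgeR adjusted p = 0.121). Itgbl1 passed the filter on low counts only through the Cre livers.

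The abundant subunits differed little. Itgb1, the β subunit of most matrix receptors, stood at 146, 143 and 164 CPM and at 162, 185 and 175 CPM, which overlapped (log2 0.20 ± 0.12 SE, edgeR adjusted p = 0.361). Itgb5, which pairs with αv to bind vitronectin, stood at 87.3, 79.6 and 96.3 CPM and at 92.1, 120 and 91.8 CPM, also overlapping (log2 0.21 ± 0.14 SE). By FPKM, which corrects for length, Itgb1 made up 53.9% ± 0.799 (SD, n = 3) of all β subunit signal in the GFP livers and 52.1% ± 3.65 in the Cre livers, and Itgb5 39.9% ± 0.907 and 38.4% ± 1.62. Itga5, the fibronectin receptor subunit, was the most abundant α subunit, at 21.8% ± 8.85 and 23.1% ± 5.63 of α signal. It was not called (log2 0.55 ± 0.33 SE) but passed the unadjusted threshold with the replicate block (0.59), with library name form in the fit (0.29), and without GFP replicate 3 (0.97) or Cre replicate 1 (0.77).

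The other α subunits of this class, Itga9, Itgav, Itga1, Itga10 and Itga7, had log2 fold changes of 0.49, 0.35, 0.22, -0.05 and -0.47, none called. The subunits of the platelet fibrinogen receptor, Itga2b and Itgb3, were not called. Itga2b stood at 2.64, 2.24 and 1.68 CPM in the GFP livers and at 1.57, 1.93 and 2.17 CPM in the Cre livers (log2 -0.21 ± 0.27 SE). Itgb3 stood at 2.90, 3.37 and 3.35 CPM and at 3.05, 3.57 and 2.5 CPM (log2 -0.07 ± 0.22 SE). Both overlapped. Platelet and megakaryocyte markers gave none called of 2 tested.

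**Figure D5:**
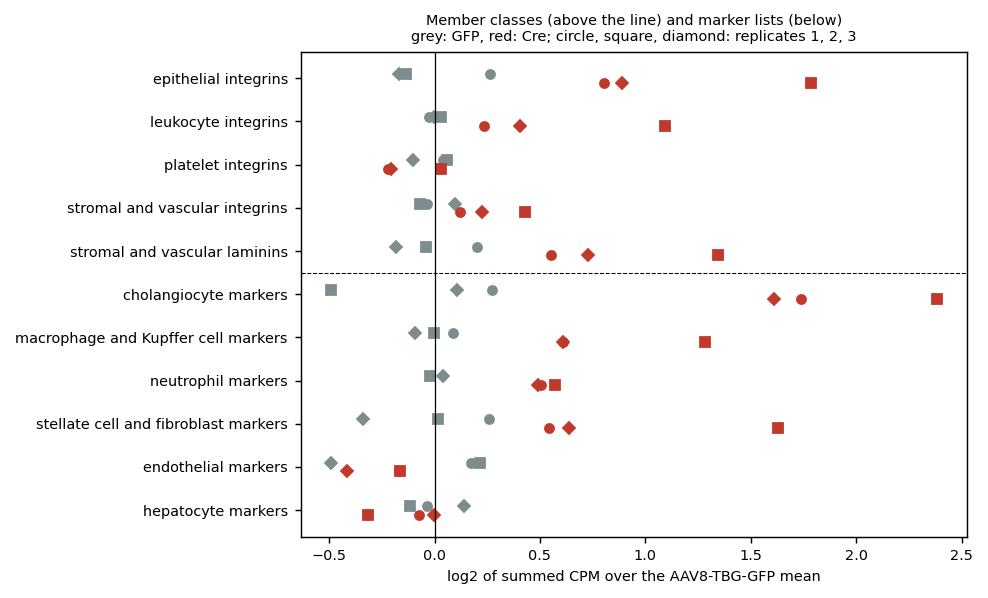
Summed CPM of 5 member classes (above the line) and of 6 marker lists (below), as log2 over the GFP mean on the horizontal axis, one point per liver. The epithelial integrins, the stromal and vascular laminins and the cholangiocyte markers have every Cre point right of every GFP point, while the endothelial and hepatocyte markers do not.

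By class, the summed level of the epithelial integrins was 12.0 to 16.3 CPM in the GFP livers and 23.6 to 46.7 CPM in the Cre livers. That of the stromal and vascular laminins was 37.3 to 48.6 CPM and 62.0 to 108 CPM. The stromal and vascular integrins, dominated by Itgb1 and Itgb5, summed to 320 to 360 CPM and 366 to 452 CPM. These classes did not overlap between groups, nor did the leukocyte integrins, at 33.3 to 34.7 CPM and 40.0 to 72.5 CPM. The platelet integrins overlapped, at 5.03 to 5.61 CPM and 4.63 to 5.50 CPM, and so did the epithelial laminins.

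Partner genes were read in the same livers. Of 33 genes of integrin activation and the adhesion complex, 8 rose, where 12.0% of all tested genes rose. In that list 2 fell (Tln2 and Parva), a share near the 8.41% of all tested genes that fell. The median log2 fold change of the 33 genes was 0.14. Src, the kinase at focal adhesions, led them at log2 1.44 ± 0.32 (edgeR adjusted p = 0.0711), with Vasp, Parvg and Flna, actin or parvin-complex genes, at 0.56, 1.14 and 1.01. Of 20 basement membrane genes tested, 13 rose, where 12.0% of all tested genes rose, at a median of 0.96. Past the adjusted threshold 1 rose, where 0.484% of all tested genes did. That gene was Col4a5, a collagen IV chain, at 0.966, 1.02 and 0.838 CPM in the GFP livers and 4.82, 10.6 and 4.43 CPM in the Cre livers (log2 2.81 ± 0.40 SE, edgeR adjusted p = 0.0363). Frem2, Col4a2 and Sparc followed at log2 2.31, 1.01 and 1.31. Frem2, Col4a4 and Col4a6 averaged 0.12, 0.274 and 0.187 CPM in the GFP livers and passed the filter on low counts only through the Cre livers. They are among the 13, so that count and the median include genes that could be tested only because they were high there.

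Of 24 integrin ligand genes tested, 14 rose, where 12.0% of all tested genes rose, at a median of 1.09. Past the adjusted threshold 2 rose, where 0.484% of all tested genes did. Cdh1, E-cadherin, the ligand of the Itgae pair, stood at 23.9, 17.1 and 18.8 CPM and at 62.7, 72.5 and 76.1 CPM (log2 1.82 ± 0.15 SE, edgeR adjusted p = 0.0149). Spp1, osteopontin, a ligand of αv integrins, stood at 89.0, 38.0 and 73.3 CPM and at 295, 457 and 219 CPM (log2 2.28 ± 0.37 SE, edgeR adjusted p = 0.0444). Neither overlapped, and both genes are also on the cholangiocyte marker list used here. Col1a2 and Tgfb2, a fibrillar collagen and a TGF-β isoform, had log2 fold changes of 1.88 and 2.28 and edgeR adjusted p-values of 0.0549 and 0.0552. Tgfb2 averaged 0.633 CPM in the GFP livers. It was among the ligand genes that rose and passed the filter on low counts only through the Cre livers.

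For the members that had one, the 300 bases around the start site were read in RefSeq's GRCm38.p6 table, which held 27 promoters of 24 members, 10 of them of 8 members that rose. They were searched on both strands for the letters TGANTCA (AP-1), GAGGAA (ETS and PU.1), GGAATG (TEAD) and GGGCGG (Sp1). In all 32851 promoters the share with a match was 7.81%, 28.3%, 14.7% and 35.7%. Among the 27 member promoters, 2, 15, 3 and 13 held them, and among the 10 promoters of members that rose, 1, 6, 0 and 6. The GAGGAA and GGAATG matches overlap in Itgb1. A match is a run of letters and no binding site was measured. Those of members from 3 classes that rose are printed as examples, with matches in capitals and the strand of each gene, at chr2:60673644-60673943 (minus) for Itgb6, chr11:95076665-95076964 (minus) for Itga3, chr2:180225810-180226109 (minus) for Lama5 and chr7:128062390-128062689 (plus) for Itgam.
Itgb6: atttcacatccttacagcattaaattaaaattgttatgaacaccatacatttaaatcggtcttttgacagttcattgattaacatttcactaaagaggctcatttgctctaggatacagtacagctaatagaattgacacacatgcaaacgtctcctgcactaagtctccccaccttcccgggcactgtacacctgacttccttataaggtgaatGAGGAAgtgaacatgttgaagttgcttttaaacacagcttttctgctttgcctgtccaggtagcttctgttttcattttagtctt
Itga3: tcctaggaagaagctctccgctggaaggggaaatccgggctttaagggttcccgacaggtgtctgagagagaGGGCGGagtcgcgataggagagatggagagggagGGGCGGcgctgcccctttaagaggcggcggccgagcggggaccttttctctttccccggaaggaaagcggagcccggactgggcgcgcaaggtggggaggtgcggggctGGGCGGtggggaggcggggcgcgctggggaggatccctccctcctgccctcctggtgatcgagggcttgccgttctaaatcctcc
Lama5: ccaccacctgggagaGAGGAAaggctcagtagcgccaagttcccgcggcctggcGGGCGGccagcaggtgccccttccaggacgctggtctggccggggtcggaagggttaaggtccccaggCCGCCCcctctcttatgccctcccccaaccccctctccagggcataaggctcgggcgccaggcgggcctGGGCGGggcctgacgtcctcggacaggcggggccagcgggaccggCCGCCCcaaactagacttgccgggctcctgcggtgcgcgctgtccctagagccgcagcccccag
Itgam: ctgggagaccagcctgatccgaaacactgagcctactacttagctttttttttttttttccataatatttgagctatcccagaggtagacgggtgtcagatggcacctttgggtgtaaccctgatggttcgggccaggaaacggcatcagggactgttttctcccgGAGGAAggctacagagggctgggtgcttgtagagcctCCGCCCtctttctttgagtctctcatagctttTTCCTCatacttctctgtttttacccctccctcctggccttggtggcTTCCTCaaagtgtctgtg
Capitals mark 1 GAGGAA match in Itgb6, 3 GGGCGG matches in Itga3, 1 GAGGAA and 4 GGGCGG matches in Lama5 and 3 GAGGAA and 1 GGGCGG matches in Itgam. Itgb6 and Itga3 each have another promoter in that table.

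The transcript files of these libraries held 2 or more transcripts for 8 members, and 4 of these, Itga3, Itga9, Itgal and Itgb5, had enough counts to compare transcript shares. The share of the transcript compared differed between groups by 1.70, -1.25, -19.7 and 1.74 percentage points, with exact permutation p-values of 1, 0.9, 0.2 and 0.4. Itgal's 4 transcripts are 5219 to 5225 bases long and near copies of each other, so its split between them is uncertain.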

How the data were processed

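RNA-seq of whole liver from 3 GFP and 3 Cre mice was read from the deposited tables of expected counts and FPKM per transcript and gene. The submitters' processing notes name HISAT2, Bowtie2 and RSEM and the mm10 build, while the study's methods name STAR, HTSeq and DESeq2, so which tools made these tables is uncertain and their versions are not given in the sources used here. The authors' expected counts were summed per gene identifier and rounded, and the authors' FPKM were used as deposited to compare levels between genes.

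Counts were tested with edgeR 4.0.16 in R 4.3.3 (quasi-likelihood, TMM, filterByExpr, Benjamini-Hochberg over 13431 genes, 3 against 3, no covariate). Alternatives were DESeq2 1.42.0, other scalings and filters, a replicate block, the form of the library name, limma 3.58.1 on log2(FPKM + 1) or log2(FPKM + 0.1), and leaving out each library. FPKM fits kept genes with at least 0.5 FPKM in 3 libraries. Ratios and transcript shares were compared with exact permutation tests, whose smallest p is 0.1. The procedures were tested on simulated data.

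Members and gene lists were chosen with earlier results of these data known. Values in every sample were given for members past the adjusted threshold, for those with the 3 largest log2 fold changes past the unadjusted threshold in each class and for the 2 with the highest mean FPKM in each class, and partner genes were the adjusted calls and the 4 smallest p-values per list. Some genes are not reported here, though counts over members and lists include them. Protein sequences were not used here, and promoters were read in their place.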

Additional observations from a re-analysis of the deposited data

How the results depend on the processing

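The number of members past the adjusted threshold was 2 in the fit reported, where 125 of all 13431 tested genes passed. It moved along with that total. DESeq2 gave 12 members (1157 of 18419 genes) and no filter on low counts 7 (372 of 18419). RLE normalization (107 genes), at least 10 counts in every library (76) and library name form in the fit (214) each gave 1. Upper quartile normalization (66 genes), the replicate block (7) and limma on FPKM with 1 or 0.1 added (22 and 27) gave 0. Leaving out single libraries gave 0 to 11 members, with 0 without Cre replicate 2 (0 genes) and 11 without Cre replicate 1 (928 of 13678). Members called at the unadjusted threshold were 14 to 22 when single libraries were left out, and 1899 to 3730 of all genes were. Those called lower (1 as reported) were 2 with no filter or the library name form, 0 with limma on FPKM, and 0 to 2 when libraries were left out. Of the 17 called members, 17 were called with DESeq2, 15 with the library name form, and 11 and 12 with limma and 1 or 0.1 added, where 27 members passed the FPKM filter. Calls were also gained: Lamb3, Itga5 and Itga1 with the library name form (18 called in all), Itga5, Itga9 and Itgav with the replicate block (19), Itgb1 with upper quartile normalization (18) and limma, Itgb7 with the 10-count filter (16), Itga2 and Itgb8 with DESeq2 (19), and these and Itga7 with no filter (20). Leaving out 1 library gained Itga2, Itga4, Itga5, Itga7, Itga9, Itgae, Itgb7 or Itgb8. Itga6, Itgal, Lama1 and Lama4 were the members that lost a call when a library was left out. An interaction of vector with library name form had an unadjusted p under 0.05 in 5 members and an adjusted one in 0. Replicate numbers are not shown to pair livers: same-numbered livers' deviations correlated at 0.0091, -0.26 and 0.21, and 16 of the 17 called members kept their call with the replicate block.

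Class medians moved with limma on log2(FPKM + 1) and log2(FPKM + 0.1), which shift the median of all genes to 0.11 and 0.14: epithelial integrins gave 0.65 and 1.2, epithelial laminins 0.26 and 0.59, platelet integrins 0.010 and 0.022, stromal and vascular laminins 0.56 with 1 added and stromal and vascular integrins 0.45 with 0.1 added. Epithelial laminins gave 0.14 with the library name form. Leaving out libraries put the epithelial integrins at 1.2 to 2.52 and the epithelial laminins at -0.38 to 0.12, positive without GFP replicate 2, where Lama3 turns to 0.12. The adhesion list's median (0.14) was 0.20 with upper quartile normalization, 0.20 and 0.29 with limma, and its calls were 5 to 10 when libraries were left out. Basement membrane calls were 8 with limma and 1 added and 8 to 14 when libraries were left out, with medians of 0.58 to 1.16. Marker medians moved as follows: cholangiocyte 1.37 with limma and 1 added; neutrophil 1.80 with DESeq2, 1.78 with no filter, 0.52 with the 10-count filter, 0.72 with the library name form, 0.62 with limma and 1 added and 1.04 to 1.72 when libraries were left out; T and NK cell -0.82 with the 10-count filter, 0.10 and 0.15 with limma and 0.25 to 0.86 when libraries were left out; B cell 0.53 with limma and 1 added; platelet 0.93 with DESeq2, 0.91 with no filter and 0.85 with limma and 0.1 added; stellate cell and fibroblast 0.40 to 1.1 when libraries were left out. B cell and platelet markers gave no value under the 10-count filter. With 0.1 FPKM added to each gene the Itgam to Itgb2 ratio difference was 0.22. The cause of these moves was not tested. Depth limits Itgb6, Itgbl1 and the 6 members not tested.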
